A study of Mus musculus with 15 samples.

Results

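Male C57BL/6 mouse pups that received severe stress together with morphine (SSM) were compared with untreated pups (CC) for gene expression in the right hippocampus. The comparison takes 6 of the 15 arrays of the study, 3 SSM and 3 CC, each from the treatment given in its label, and covers 19938 genes. A gene is represented by the probe set that carries exactly 1 gene symbol and has the highest mean over all 15 arrays. Among the genes named below, Tra2a, Cycs and Galntl6 have 3 probe sets with 1 symbol each. Ciart, Snhg11, Tomm20 and Pcna have 2 each, and only the values of the one with the highest mean are given. The groups not in this comparison also hold 3 arrays each: severe stress with saline vehicle (SSS), mild stress with morphine (MSM) and mild stress with saline vehicle (MSS). Treatment ran from postnatal day 5 to day 9, with birth counted as day 1, and total RNA was taken at day 9 from litters of at most 7 pups per dam. CC pups had no treatment, so SSM differs from CC in the stress, the drug and the injection at once. What the stress consisted of, the morphine dose and the litter of each pup could not be read from the labels. Litter and group therefore cannot be told apart here, and no label says that the arrays of a group come from separate litters, so the p-values measure only the spread between these arrays.

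In the neonatal rodent the hippocampus is still forming its circuits: dentate granule cells are being added, oligodendrocytes are starting to make myelin, and the response of the adrenal to stress is damped. Morphine acts mainly through the mu opioid receptor, encoded by Oprm1, which lowers cyclic AMP and quietens inhibitory interneurons of the hippocampus. Glucocorticoids released under stress enter the nucleus with their receptors and raise a known set of target genes, several of which also belong to the circadian clock.

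Values are log2 intensities, so a difference of 1 is a 2-fold change, and differences are SSM minus CC unless another pair is named. Pearson's r between the 6 arrays ran from 0.9923 to 0.9982 over all genes. The array medians were 5.42, 5.41 and 5.60 in SSM and 5.48, 5.44 and 5.46 in CC. SSM replicate 3 stood apart: its median gene lay 0.16 above the mean of the other arrays, and the median gene of SSM replicates 1, 2 and 3 differed from the CC mean by 0.00, 0.01 and 0.16. SSM replicate 1 stood apart in another way, with striatal and myelin markers well above the other SSM arrays (values are given with the marker lists). The SSM arrays carry SS numbers 8, 9 and 9 in their titles and the CC arrays 12. The meaning of that number is not stated, and it cannot be told apart from the group. Markers of hippocampal glutamatergic neurons were measured in both groups. The vesicular glutamate transporter Slc17a7 stood at 10.81, 11.30 and 11.31 in SSM and 10.98, 11.23 and 11.26 in CC, and the dentate granule cell factor Prox1 at 7.81, 8.79 and 8.92 in SSM and 8.62, 8.94 and 8.55 in CC.

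No gene passed the test: limma called 0 genes higher (0%) and 0 lower (0%) in SSM at an adjusted p under 0.05, and the smallest adjusted p was 0.529. At an unadjusted p under 0.05, limma counted 1581 genes higher (7.93%) and 215 lower (1.08%). The median standard error of a difference was 0.08. The 3 SSM arrays lay wholly above the 3 CC arrays for 2079 genes (10.4%) and wholly below for 295 (1.48%). The split between higher and lower moved with the scaling: after quantile normalization the unadjusted counts were 961 higher (4.82%) and 536 lower (2.69%), and without SSM replicate 3 they were 626 higher (3.14%) and 560 lower (2.81%). The share of all genes with a higher mean was 76.9% as deposited, 59.7% after quantile normalization and 53.7% without SSM replicate 3. The median difference over all genes was 0.06 as deposited, 0.02 after quantile normalization, 0.01 without SSM replicate 3 and 0.09 without SSM replicate 1. Every list below is therefore read beside the same quantity over all genes, and no direction is called for a gene or a list. The lists were chosen with earlier results of these data known, so their counts are descriptions and no list was tested. In these bulk samples, fewer cells of a type and less RNA per cell cannot be told apart.

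The 10 genes with a higher mean and smallest p were led by Cpn1, which encodes the catalytic subunit of carboxypeptidase N, a plasma enzyme that trims kinins and complement fragments. Cpn1 measured 4.57, 4.33 and 4.58 in SSM and 4.11, 4.04 and 3.98 in CC, a difference of 0.45 ± 0.08 (limma standard error, unadjusted p = 3.6e-05, adjusted p = 0.529). Cpn1 was a dim gene: each of these values lay below the median of its array, which ran from 5.41 to 5.60. Timm8b, a small chaperone that escorts proteins to the inner mitochondrial membrane, measured 8.99, 8.99 and 9.09 in SSM and 8.68, 8.75 and 8.65 in CC (difference 0.33 ± 0.06). Dbp, a transcription factor of the clock's output, measured 8.78, 8.46 and 8.41 in SSM and 8.06, 8.16 and 7.98 in CC (difference 0.48 ± 0.09). In all 3 genes the lowest SSM array lay above the highest CC array, and above the other 9 arrays of the study too.

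The next genes in that order were Pigh, Cisd1, Nop10, Polr2j, Avpi1, Fut10 and Commd6. Pigh, part of the enzyme that starts glycosylphosphatidylinositol anchors, measured 6.71, 6.74 and 6.85 in SSM and 6.34, 6.52 and 6.32 in CC. Cisd1, an iron-sulphur protein of the outer mitochondrial membrane, measured 8.52, 8.66 and 8.71 in SSM and 8.35, 8.37 and 8.29 in CC. Nop10 belongs to the particles that guide pseudouridylation of ribosomal RNA, and Polr2j is a subunit of RNA polymerase II. Nop10 differed by 0.34 ± 0.07 and Polr2j by 0.27 ± 0.06. Avpi1, first described as a gene induced by vasopressin, differed by 0.32 ± 0.07, the fucosyltransferase family member Fut10 by 0.32 ± 0.07 and the COMM domain gene Commd6 by 0.28 ± 0.06. SSM lay above CC without overlap in all 10 genes, which were chosen by this same contrast. Their differences after quantile normalization ran from 0.21 for Polr2j to 0.43 for Dbp.

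The 10 genes with a lower mean and smallest p were led by Sfi1, Med12 and Snrnp70. Sfi1, a centrosomal gene whose yeast counterpart binds centrin, measured 6.09, 5.98 and 6.02 in SSM and 6.50, 6.41 and 6.50 in CC (difference -0.44 ± 0.09, unadjusted p = 0.00019, adjusted p = 0.529). Med12, of the kinase module of Mediator, measured 6.80, 7.07 and 7.02 in SSM and 7.51, 7.21 and 7.36 in CC (difference -0.40 ± 0.09). Snrnp70, a protein of the U1 small nuclear ribonucleoprotein that recognises 5′ splice sites, measured 9.01, 8.80 and 8.84 in SSM and 9.32, 9.11 and 9.26 in CC (difference -0.35 ± 0.08). The SSM and CC arrays did not overlap in any of these, and CC replicate 2 was the lowest CC array in each.

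Zfp57, a zinc finger protein that protects methylation at imprinted loci, measured 8.52, 8.80 and 8.76 in SSM and 9.10, 9.00 and 9.32 in CC (difference -0.44 ± 0.11). Srrm2, a scaffold of nuclear speckles, lay between 9.69 and 10.01 in SSM and measured 10.54, 10.12 and 10.26 in CC (difference -0.40 ± 0.10). The splicing regulators Arglu1 and Sfswap differed by -0.34 ± 0.09 and -0.35 ± 0.09. Cep250, which links the centrioles of a centrosome, differed by -0.28 ± 0.07, the Janus kinase Tyk2 by -0.34 ± 0.09 and the mitochondrial myosin Myo19 by -0.31 ± 0.08. Sfi1, Cep250, Srrm2 and Myo19 were also lower in every SSM array than in all 12 other arrays, and belong to 20 such genes among the 19938 (0.1%). On the upper side, 464 genes (2.33%) lay above all 12 other arrays, among them the 10 named.

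**Figure D1:**
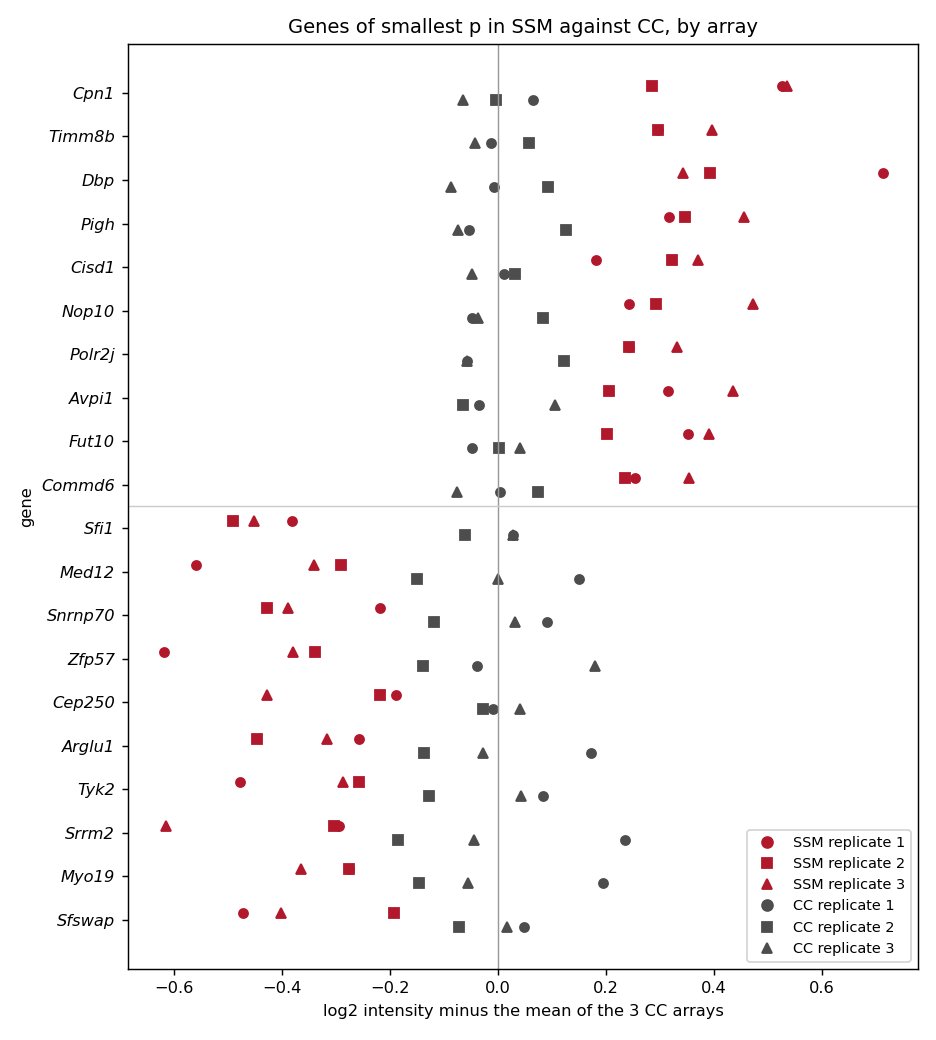
Log2 intensity minus the CC mean (horizontal axis) for the 10 genes with a higher and the 10 with a lower mean of smallest p (vertical axis), with 1 point per array, SSM in red and CC in grey. The red and grey points do not overlap in any of the 20 genes, which were chosen by this contrast, and the CC replicate 2 squares lie below 0 in the 10 lower genes.

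Among the lists by function, the one of long RNAs kept in the nucleus, with 4 of its 11 entries measured, had the median difference farthest from 0. Malat1, a noncoding RNA of nuclear speckles, measured 10.70, 10.46 and 10.53 in SSM and 11.51, 11.07 and 11.24 in CC (difference -0.71 ± 0.24, unadjusted p = 0.011). Meg3, the maternally expressed noncoding RNA of the imprinted Dlk1 to Dio3 region, measured 11.40, 11.39 and 11.33 in SSM and 12.13, 11.71 and 12.05 in CC (difference -0.59 ± 0.19, unadjusted p = 0.0077). Snhg11, a host of small nucleolar RNAs, measured 8.24, 8.26 and 8.11 in SSM and 9.05, 8.53 and 9.06 in CC (difference -0.68 ± 0.19). Rian, which lies downstream of Meg3 in the same region, measured 7.37, 7.80 and 7.79 in SSM and 8.21, 7.93 and 8.25 in CC (difference -0.48 ± 0.20). All 4 lay lower in SSM without overlap and had an unadjusted p under 0.05, against 1.48% and 1.08% of all genes, and none passed after adjustment. This list too was chosen with earlier results of these data known. Meg3 and Rian are of the same region, so the 4 may not be independent genes. The list's median difference was -0.63 as deposited, -0.67 after quantile normalization and -0.60 without SSM replicate 3, against 0.06, 0.02 and 0.01 over all genes. Within CC, replicate 2 was the lowest array for each of the 4.

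The splicing factors and kinases also had lower means, by smaller amounts. Of 24 measured, 20 had a lower mean in SSM, against 23.1% of all genes, and 4 a higher one. In all, 13 lay below CC without overlap and 9 had an unadjusted p under 0.05 with a lower mean, against 1.48% and 1.08% of all genes. Without SSM replicate 2 the 9 became 5, and after quantile normalization 14. Over all 19938 genes, 161 and 536 were lower at that level in these settings. Tra2a, a serine and arginine rich splicing activator, measured 7.88, 7.91 and 7.96 in SSM and 8.62, 8.25 and 8.39 in CC (difference -0.50 ± 0.15). Son, a core protein of nuclear speckles, measured 9.32, 9.35 and 9.34 in SSM and 9.64, 9.53 and 9.52 in CC (difference -0.23 ± 0.07). The 3 SSM arrays lay within 0.1 of each other in both genes and below every CC array. The median difference of the list was -0.09, with -0.14 after quantile normalization and -0.14 without SSM replicate 3. After quantile normalization 24 of 24 had a lower mean, against 8029 of all 19938 genes. Chromatin modifiers and Mediator subunits split more evenly than the splicing list. Of 22, 13 had a lower mean, against 23.1% of all genes, and the median difference was -0.03. After quantile normalization 18 had a lower mean, with a median of -0.08 and 4 lower at an unadjusted p under 0.05. Over all 19938 genes, 8029 had a lower mean in that setting and 536 were lower at that level. Without SSM replicate 3, 11 had a lower mean and the median was -0.01, where 9229 of all 19938 genes had a lower mean. As deposited, Med12 and Akap8, a nuclear anchoring protein, were the 2 with an unadjusted p under 0.05, both lower, against 1.08% of all genes. Akap8 measured 8.58, 8.52 and 8.52 in SSM and 8.96, 8.69 and 8.80 in CC.

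Meg3 and Rian led to a look at their whole region, chosen after their values were seen. The Dlk1 to Dio3 region (chr12:109452485-110281097, RefSeq positions on GRCm38.p6) is an imprinted stretch whose maternal copy makes long noncoding RNAs and many microRNAs, and whose paternal copy makes Dlk1, Rtl1 and Dio3. It holds 48 measured genes, of which 41 had a lower mean in SSM, 17 lay below CC without overlap and 15 had an unadjusted p under 0.05, all lower, against 23.1%, 1.48% and 1.08% of all genes. Meg3 and Rian, which led to the choice of the region, are counted in the 41, the 17 and the 15. Without SSM replicate 1, 8 genes had an unadjusted p under 0.05, and without SSM replicate 3, 19 did, all lower. Over all 19938 genes, 149 and 560 were lower at that level in these settings. Of its 40 microRNA genes, 12 had an unadjusted p under 0.05. Their mature sequences are shown for the 5 of smallest p, 5′ to 3′ from the RefSeq table of GRCm38.p6, with the seed (bases 2 to 8) in capitals, because the products of these genes differ in which targets they can pair with:
miR-487b-5p: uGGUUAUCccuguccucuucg
miR-667-5p: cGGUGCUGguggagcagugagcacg
miR-667-3p: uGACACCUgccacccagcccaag
miR-380-5p: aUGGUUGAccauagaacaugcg
miR-380-3p: uAUGUAGUaugguccacaucuu
miR-134-5p: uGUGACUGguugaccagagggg
miR-134-3p: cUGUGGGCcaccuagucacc
miR-679-5p: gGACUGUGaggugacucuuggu
miR-679-3p: aGCAAGGUccuccucacaguag
All 12 genes were matched to mature entries, with 23 arms that carry 23 distinct seeds, so no pair of these arms shares one. For Mir487b the RefSeq table held the 5p arm alone. A gene has 1 value here, and its arms have none of their own, so the amounts of the mature microRNAs are not known. Whether neighbouring genes of the region share a transcript was not tested, so the counts may not be of independent genes.

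Mir487b had the lowest difference of all 19938 genes. It measured 6.06, 6.20 and 6.17 in SSM and 7.24, 6.61 and 7.32 in CC (difference -0.91 ± 0.23, unadjusted p = 0.0015, adjusted p = 0.529). Mir667 measured 7.03, 7.23 and 7.47 in SSM and 7.77, 7.57 and 7.65 in CC (difference -0.42 ± 0.11). In both genes every SSM array was below every CC array, by the narrowest margin against CC replicate 2. Mir134, known in rodent hippocampal neurons for restraining dendritic spine growth, measured 7.71, 7.95 and 8.03 in SSM and 8.48, 8.12 and 8.44 in CC (difference -0.45 ± 0.14). Mir380 differed by -0.50 ± 0.14 and Mir679 by -0.61 ± 0.19. Rtl1, a retrotransposon-derived gene of the paternal copy that is antisense to some microRNAs of the region, measured 4.96, 4.81 and 5.10 in SSM and 5.29, 5.22 and 5.35 in CC (difference -0.32 ± 0.09). Dlk1 and Dio3, the protein genes at the ends, did not separate the groups: Dlk1 measured 6.35, 6.31 and 6.46 in SSM and 6.56, 6.24 and 6.13 in CC, and Dio3 measured 4.61, 4.96 and 5.12 in SSM and 4.76, 4.90 and 4.87 in CC. The median difference over the 48 genes was -0.18, with -0.20 after quantile normalization, -0.11 without SSM replicate 1 and -0.25 without SSM replicate 3. By array it was -0.32, -0.20 and -0.05 in SSM replicates 1, 2 and 3, against 0.07, -0.12 and 0.08 in CC replicates 1, 2 and 3, all relative to the CC mean. By that measure SSM replicate 3 lay between CC replicate 2 and the other CC arrays. Outside the region, Mir697 had the smallest p among microRNA genes (difference -0.33 ± 0.07, unadjusted p = 0.00026), with 5.04, 4.86 and 5.15 in SSM and 5.39, 5.30 and 5.35 in CC.

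Genes of the mitochondrion had higher means. All 29 measured subunits of oxidative phosphorylation, the chain of complexes that makes ATP from electrons carried to oxygen, had a higher mean in SSM, against 76.9% of all genes. Of the 29, 14 lay above CC without overlap and 9 had an unadjusted p under 0.05, against 10.4% and 7.93% of all genes, and none passed after adjustment. Ndufb5 of complex I measured 10.04, 9.89 and 9.97 in SSM and 9.77, 9.79 and 9.72 in CC (difference 0.21 ± 0.06, unadjusted p = 0.0059). Uqcrfs1, the iron-sulphur protein of complex III, measured 8.09, 8.27 and 8.38 in SSM and 7.93, 8.08 and 7.84 in CC (difference 0.30 ± 0.09). Ndufa1 and Ndufb8, also of complex I, differed by 0.22 ± 0.07 and 0.24 ± 0.08. In these 4 the lowest SSM array was above the highest CC array, with a margin as narrow as that between 8.09 and 8.08 for Uqcrfs1. The median difference of the list was 0.11 as deposited, 0.06 after quantile normalization and 0.07 without SSM replicate 3, and in both of these settings 5 members had an unadjusted p under 0.05. Over all genes these medians were 0.06, 0.02 and 0.01. After quantile normalization and without SSM replicate 3, 4.82% and 3.14% of all genes were higher at that level. Without SSM replicate 1 the list's median was 0.10, close to the 0.09 over all genes. By array it was 0.13, 0.04 and 0.18 above the CC mean in SSM replicates 1, 2 and 3, against 0.00, 0.01 and 0.16 over all genes.

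Proteins that build and fill the mitochondrion followed the same pattern. Of 24 genes of the mitochondrial ribosome and of protein import, 23 had a higher mean, 8 lay above CC without overlap and 7 had an unadjusted p under 0.05, against 76.9%, 10.4% and 7.93% of all genes. The 7 became 3 after quantile normalization and 4 without SSM replicate 3, where 4.82% and 3.14% of all genes were higher at that level. Mrpl12, a protein of the large mitochondrial ribosomal subunit, measured 8.22, 8.45 and 8.46 in SSM and 8.10, 8.18 and 8.04 in CC (difference 0.26 ± 0.07). Mrpl20, of the same subunit, differed by 0.23 ± 0.07, and Tomm20, the receptor of the outer membrane translocase, by 0.17 ± 0.06. The list's median difference was 0.12, and 0.06 after quantile normalization. Proteasome subunits also had higher means in 23 of 24 cases, with 5 at an unadjusted p under 0.05, against 76.9% and 7.93% of all genes, and a median difference of 0.10. Psmb5, the catalytic subunit with chymotrypsin-like activity, measured 9.54, 9.51 and 9.52 in SSM and 9.27, 9.44 and 9.29 in CC. Psmc5, Psmb4 and Psmb7 were the other members of smallest p, with differences of 0.13, 0.14 and 0.13. After quantile normalization, and also without SSM replicate 3, 0 proteasome subunits had an unadjusted p under 0.05, and the median difference was 0.05 and 0.06 in these settings.

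The circadian clock runs on a loop in which Clock and Arntl switch on genes that later repress them, and Dbp, Nr1d1, Nr1d2 and Ciart are among the genes they switch on. Of 18 clock genes measured, 16 had a higher mean in SSM, 5 lay above CC without overlap and 4 had an unadjusted p under 0.05, against 76.9%, 10.4% and 7.93% of all genes. Nr1d1, a nuclear receptor that represses Arntl, measured 8.50, 8.59 and 8.42 in SSM and 8.19, 8.23 and 8.23 in CC (difference 0.29 ± 0.08, unadjusted p = 0.0024). Its relative Nr1d2 measured 8.46, 8.11 and 8.33 in SSM and 8.11, 8.05 and 7.91 in CC (difference 0.27 ± 0.08). Ciart, a repressor of Clock and Arntl, measured 6.53, 6.35 and 6.09 in SSM and 6.03, 6.17 and 5.81 in CC (difference 0.32 ± 0.13), with overlap between the groups. Dbp separated the groups by the widest margin of these, and SSM replicate 1 was its highest array. Per1, a core repressor that glucocorticoids also raise, measured 7.12, 7.01 and 7.13 in SSM and 7.02, 6.94 and 6.94 in CC (unadjusted p = 0.11). The list's median difference was 0.10 as deposited, 0.06 after quantile normalization and 0.10 without SSM replicate 3. After quantile normalization 3 members had an unadjusted p under 0.05, and without SSM replicate 3, 4 did. Of all genes, 4.82% and 3.14% were higher at that level in those settings. Without SSM replicate 1 the list's median was 0.06, below the 0.09 over all genes. By array it was 0.18, 0.04 and 0.10 above the CC mean in SSM replicates 1, 2 and 3, against 0.00, 0.01 and 0.16 over all genes. No source used here gives the hour at which tissue was taken, so hour and group cannot be told apart.

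The canonical E-box, CACGTG, which reads the same on both strands, was searched for in the RefSeq promoters of the clock genes, from 250 bases before to 50 after each start. Of the 18 genes, 16 had a promoter in the table, 22 promoters in all. The motif was in 6 of these 22 promoters (27.3%), against 7.15% of all 32851 promoters, and the 6 belong to Ciart, Bhlhe41, Cry1, Per1 and Tef. The promoters of Dbp, Nr1d1 and Nr1d2 in the table held 0 copies in this window. The promoter of Ciart held 3 copies. At least 3 were found in 29 of all promoters (0.0883%), and Ciart's is shown for that reason, from chr3:95882179-95882478 on the minus strand of GRCm38.p6 with the E-boxes in capitals:
Ciart promoter: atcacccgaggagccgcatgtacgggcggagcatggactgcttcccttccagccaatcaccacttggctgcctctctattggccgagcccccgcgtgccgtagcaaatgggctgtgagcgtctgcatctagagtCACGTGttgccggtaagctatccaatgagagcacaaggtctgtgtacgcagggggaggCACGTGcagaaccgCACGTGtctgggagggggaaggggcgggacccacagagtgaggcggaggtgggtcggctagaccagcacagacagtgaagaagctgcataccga
The copies begin 116, 58 and 44 bases before the start site. These are matches of letters, and no binding was measured.

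**Figure D2:**
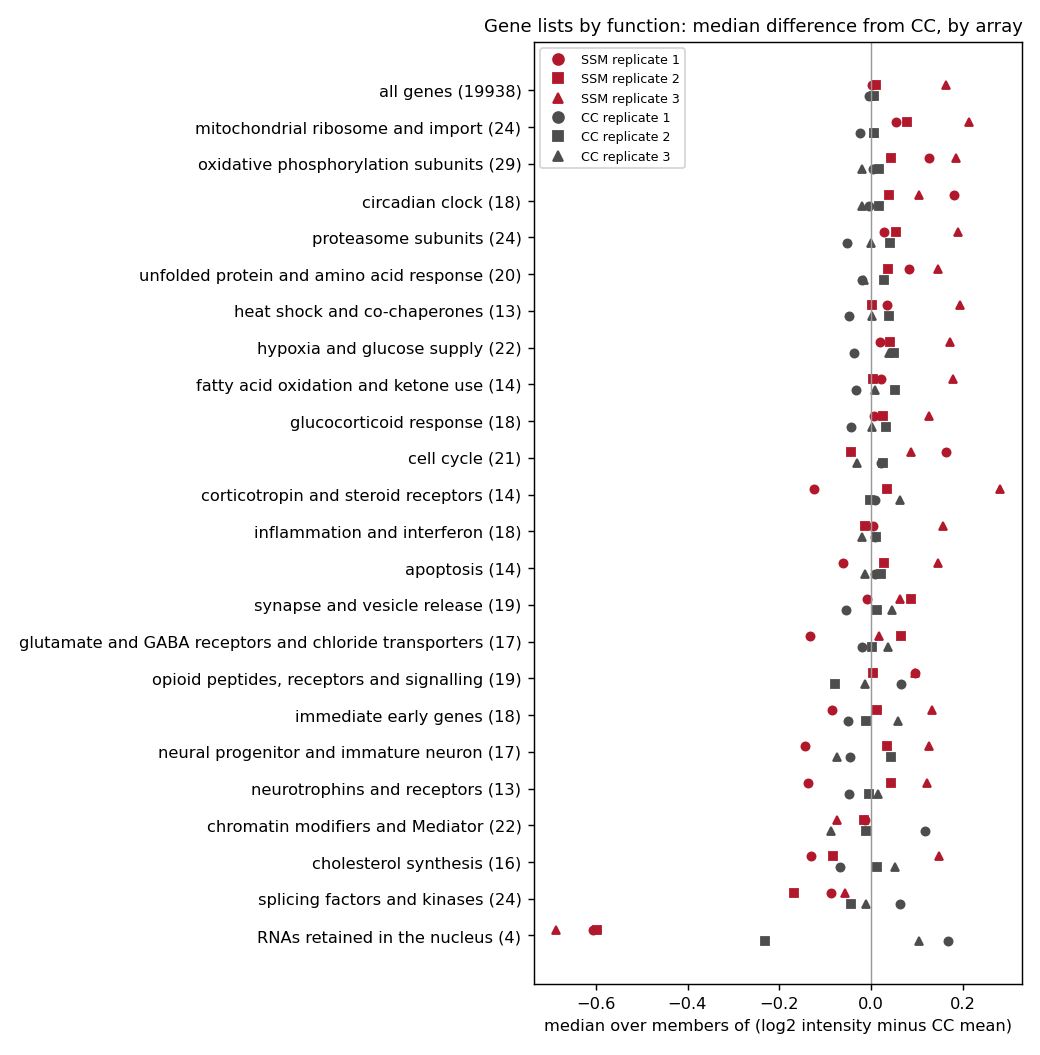
Median over the members of each list by function of log2 intensity minus the CC mean (horizontal axis), with 1 point per array and the number of measured genes in brackets (vertical axis). SSM points are red and CC points grey. The RNAs retained in the nucleus lie far to the left in all 3 SSM arrays, and the SSM replicate 3 triangles lie to the right in most lists, as they do over all genes.

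Lists closest to the treatments showed small differences. None of the 18 measured targets of the glucocorticoid receptor had an unadjusted p under 0.05, and their median difference was 0.06, beside 0.06 over all genes. Errfi1, an inhibitor of the epidermal growth factor receptor and the list's member of smallest p, differed by 0.18 ± 0.10 (unadjusted p = 0.092), with overlapping groups. The glucocorticoid receptor Nr3c1 itself measured 7.85, 7.84 and 7.95 in SSM and 7.84, 7.84 and 7.80 in CC, with overlap. Of 14 corticotropin and steroid receptor genes, 2 had an unadjusted p under 0.05, both with a higher mean, against 7.93% of all genes. Crhr2, a receptor for urocortins, measured 5.47, 5.40 and 5.56 in SSM and 5.29, 5.15 and 5.36 in CC (difference 0.21 ± 0.08), and the oxytocin receptor Oxtr measured 6.09, 6.08 and 6.36 in SSM and 6.12, 5.77 and 6.03 in CC (difference 0.20 ± 0.09, or 0.11 without SSM replicate 3). Without SSM replicate 3, the list's median difference was -0.05 and 0 members had an unadjusted p under 0.05.

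The opioid list held 1 gene of 19 with an unadjusted p under 0.05, which had a higher mean, against 7.93% of all genes. That gene was Rgs4, which shortens signalling by opioid and other G protein coupled receptors. It measured 10.18, 9.60 and 9.79 in SSM and 9.54, 9.60 and 9.55 in CC (difference 0.29 ± 0.12, unadjusted p = 0.031). SSM replicate 2 was level with CC replicate 2 to 2 decimals, and SSM replicate 1 was the highest array. Without SSM replicate 1 the difference was 0.13. Oprm1, the receptor through which morphine mainly acts, measured 5.07, 4.90 and 5.08 in SSM and 5.04, 4.79 and 4.89 in CC (difference 0.11 ± 0.07, unadjusted p = 0.13), with overlap. The kappa receptor gene Oprk1 measured 6.15, 4.30 and 4.58 in SSM and 4.85, 4.31 and 4.26 in CC, and Pdyn, the precursor of its dynorphin ligands, measured 7.71, 6.64 and 6.61 in SSM and 6.95, 6.53 and 6.47 in CC. In both, SSM replicate 1 and CC replicate 1 were the highest arrays of their groups, the same arrays that carried the most striatal marker signal. Without SSM replicate 1 the differences were -0.03 for Oprk1 and -0.03 for Pdyn, and the part of striatal signal in them was not tested further. The list's median difference was 0.02 as deposited and -0.03 after quantile normalization.

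Genes of cellular stress had few members of small p. Of 22 genes of hypoxia and glucose supply, Car9, Epo and Slc2a1 had an unadjusted p under 0.05 with a higher mean, and Vegfa with a lower mean. Over all genes those shares were 7.93% and 1.08%. Vegfa, the main growth factor for blood vessels, measured 7.60, 7.64 and 7.72 in SSM and 7.90, 7.77 and 7.93 in CC (difference -0.22 ± 0.08, unadjusted p = 0.017). Slc2a1, the glucose transporter of the blood-brain barrier, measured 9.63, 9.57 and 9.63 in SSM and 9.47, 9.53 and 9.25 in CC (difference 0.20 ± 0.09). Carbonic anhydrase Car9 differed by 0.20 ± 0.09 (0.11 without SSM replicate 1) and erythropoietin, Epo, by 0.15 ± 0.06, with overlapping groups. After quantile normalization 0 members of this list with a higher mean had an unadjusted p under 0.05. Of 20 genes of the response to unfolded proteins and to amino acid shortage, 2 had an unadjusted p under 0.05 with a higher mean, against 7.93% of all genes. They were the leucine sensor Sesn2 (difference 0.18 ± 0.08) and the endoplasmic reticulum chaperone Dnajb9 (difference 0.22 ± 0.10). After quantile normalization 0 of the 20 had an unadjusted p under 0.05. Heat shock genes and co-chaperones had 0 of 13 such members and a median difference of 0.08. The member of smallest p was Dnajb1, which helps Hsp70 proteins, with 8.19, 8.18 and 8.28 in SSM and 7.96, 8.18 and 8.11 in CC.

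Lists of neuronal activity and signalling held few genes of small p, where 7.93% of all genes were higher and 1.08% lower at an unadjusted p under 0.05. Of 18 immediate early genes, which neurons switch on within minutes of firing, 0 had an unadjusted p under 0.05. Egr3, the one of smallest p, measured 7.51, 7.30 and 7.33 in SSM and 7.29, 7.26 and 7.02 in CC. Of 19 genes of synapse and vesicle release, the calcium sensor Syt5 had an unadjusted p under 0.05 (difference 0.20 ± 0.09), with 10.03, 9.85 and 9.93 in SSM and 9.68, 9.75 and 9.78 in CC. Of 17 genes of glutamate and GABA receptors and chloride transporters, the kainate receptor subunit Grik2 did (difference 0.20 ± 0.08), with 9.03, 9.00 and 9.00 in SSM and 8.98, 8.76 and 8.71 in CC. From the same list, Gria2, the subunit that makes AMPA receptors impermeable to calcium, lay lower in SSM without overlap, at 10.38, 10.41 and 10.50 in SSM against 10.53, 10.52 and 10.59 in CC (unadjusted p = 0.12). The 13 neurotrophin genes had 0 members of unadjusted p under 0.05, and Gdnf, a survival factor for dopamine and motor neurons, came closest (difference 0.23 ± 0.11, unadjusted p = 0.059). The median differences of these 4 lists were 0.02, 0.03, 0.02 and 0.02, and all 4 were below 0 after quantile normalization.

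The remaining lists by function held 0 genes of unadjusted p under 0.05 in SSM against CC. The 16 genes of cholesterol synthesis were the ones with a median below 0 (-0.04) and 11 lower means, against 23.1% of all genes. They were led by Hmgcs1, which makes HMG-CoA for the pathway, with 11.30, 11.31 and 11.51 in SSM and 11.43, 11.50 and 11.57 in CC. That median was 0.02 without SSM replicate 1, and -0.12 without SSM replicate 3. Fatty acid oxidation and ketone use had a median difference of 0.08 over 14 genes, cell cycle 0.06 over 21, inflammation and interferon 0.06 over 18, apoptosis 0.03 over 14, and neural progenitor and immature neuron 0.02 over 17. Pcna, the replication clamp and the cell cycle gene of smallest p, measured 9.12, 8.89 and 9.03 in SSM and 8.86, 8.91 and 8.89 in CC. Tlr4, the receptor for bacterial lipopolysaccharide, measured 4.39, 4.31 and 4.62 in SSM and 4.29, 4.27 and 4.32 in CC. Cytochrome c, Cycs, which belongs to the apoptosis list and also carries electrons in respiration, measured 9.85, 9.71 and 9.91 in SSM and 9.62, 9.69 and 9.69 in CC, without overlap. Its difference was 0.16 ± 0.08.

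Marker lists of other cell types and of neighbouring tissue were uneven between arrays. Striatal markers were the most uneven: relative to the CC mean their median was 2.00, -0.33 and -0.26 in SSM replicates 1, 2 and 3, and 0.85, -0.43 and -0.38 in CC replicates 1, 2 and 3. The dopamine receptor gene Drd1, named here after its values were seen, measured 9.72, 6.54 and 6.79 in SSM and 7.97, 6.57 and 6.74 in CC. The enkephalin precursor Penk, an opioid peptide gene of the striatum named likewise, measured 11.40, 7.38 and 7.51 in SSM and 10.08, 7.31 and 7.35 in CC. One array in each group thus stood far above its fellows, and the group means differed by 0.59 for Drd1 and 0.51 for Penk, with differences of -0.43 and -0.81 once SSM replicate 1 was left out. All 15 striatal markers had a higher mean in SSM, against 76.9% of all genes, and none had an unadjusted p under 0.05. The median difference was 0.47, or -0.34 without SSM replicate 1.

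Myelin and mature oligodendrocyte markers had a higher mean in 16 of 16 cases, against 76.9% of all genes. Their median was 0.94, -0.08 and 0.02 in SSM replicates 1, 2 and 3 against 0.28, -0.03 and -0.21 in CC replicates 1, 2 and 3. Mog, a late myelin protein, measured 6.34, 4.97 and 5.15 in SSM and 5.38, 4.95 and 4.83 in CC. The median difference was 0.26, and -0.01 without SSM replicate 1. The 13 markers of meninges and fibroblasts ran the other way in the same array, with a median of -0.72 in SSM replicate 1 and a difference of -0.17 that became 0.14 without it. Choroid plexus markers had a higher mean in 14 of 14 cases (median difference 0.28) and ependymal and cilia markers in 12 of 12 (0.15), against 76.9% of all genes. SSM replicate 1 was the highest array in both, and SSM replicate 2 lay below the CC mean in both. None of these lists held a member that separated the groups.

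The remaining marker lists had median differences of 0.18 or less. Over all genes, 76.9% had a higher mean, and 7.93% were higher and 1.08% lower at an unadjusted p under 0.05. Of 14 microglial markers 13 had a higher mean, with a median difference of 0.14, and Fcer1g, an adaptor of immune receptors, had an unadjusted p under 0.05 (7.43, 7.23 and 7.43 in SSM, 7.19, 7.26 and 6.90 in CC). By array the microglial median was 0.28, 0.00 and 0.11 above the CC mean in SSM replicates 1, 2 and 3. Without SSM replicate 1, 9 of the 14 had a higher mean, against 16307 of all 19938 genes. The median difference was then 0.08, against 0.09 over all genes. Among 6 blood markers, Alas2, the haem synthesis enzyme of red cell precursors, measured 6.02, 6.65 and 6.50 in SSM and 5.96, 5.87 and 5.75 in CC (difference 0.53 ± 0.21, unadjusted p = 0.025), and the red cell anion exchanger Slc4a1 measured 5.28, 5.35 and 5.45 in SSM and 5.17, 5.32 and 5.04 in CC. Of 16 endothelial and pericyte markers, the transporter Slco1a4 had a higher mean (difference 0.27 ± 0.11) and the tight junction protein Cldn5 a lower one (difference -0.17 ± 0.07, or -0.09 without SSM replicate 1), both at an unadjusted p under 0.05. C1ql1 was the 1 oligodendrocyte precursor marker of 14 at that level (difference 0.19 ± 0.09). Markers of glutamatergic subfield neurons, interneurons, astrocytes and thalamus held none at that level, with median differences of 0.01, 0.18, 0.03 and 0.04. Relative to the CC mean, the glutamatergic median was -0.29, 0.11 and 0.21 in SSM replicates 1, 2 and 3. In CC replicates 1, 2 and 3 it was -0.09, 0.10 and 0.01. Without SSM replicate 1 the glutamatergic median difference was 0.16. The interneuron median was 0.26, 0.01 and 0.12 in the SSM arrays and 0.19, -0.05 and -0.15 in the CC arrays. Gfap, the intermediate filament of astrocytes, measured 8.53, 8.79 and 8.89 in SSM and 9.03, 9.12 and 8.77 in CC. The splicing list and the nuclear RNAs did not follow SSM replicate 1: without it their median differences were -0.10 and -0.65.

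**Figure D3:**
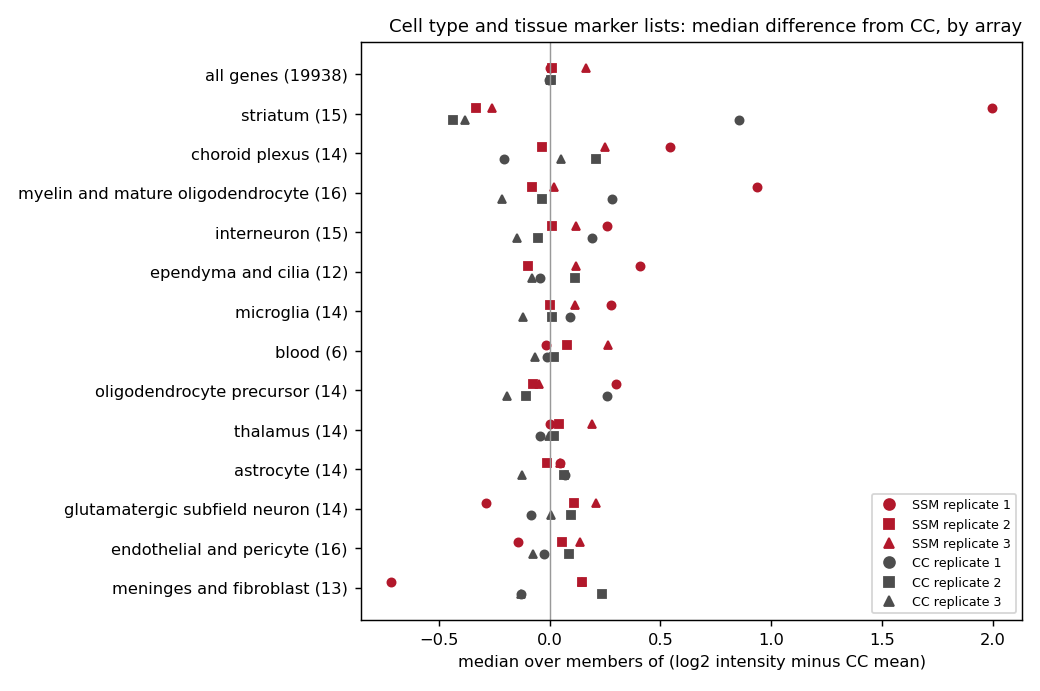
Median over the members of each marker list of log2 intensity minus the CC mean (horizontal axis), with 1 point per array and the number of measured genes in brackets (vertical axis). The SSM replicate 1 circle lies at 2.00 for striatum, 0.94 for myelin and -0.72 for meninges, away from the other SSM arrays, and the CC replicate 1 circle lies at 0.85 for striatum.

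SSM against SSS sets morphine against saline under the same severe stress, and SSM against MSM sets severe against mild stress under morphine. These pairs and SSM against CC share the SSM arrays. All MSM arrays carry SS number 11, so in SSM against MSM the stress and the SS number cannot be told apart. The SSS arrays carry 10, 10 and 8, against 8, 9 and 9 in SSM. limma called 0 genes at an adjusted p under 0.05 in either comparison. The smallest adjusted p was 0.494 against SSS and 0.0764 against MSM. At an unadjusted p under 0.05, limma counted 1736 genes higher (8.71%) and 132 lower (0.662%) in SSM than in SSS, and 2408 higher (12.1%) and 450 lower (2.26%) in SSM than in MSM. Of the 20 genes named for SSM against CC, 15 had an unadjusted p under 0.05 against SSS and 20 against MSM, each choice resting on the same SSM arrays. Dbp was 8.08, 8.01 and 8.08 in SSS and 8.19, 8.12 and 7.94 in MSM, so the SSM arrays lay above both (SSM minus SSS 0.49, unadjusted p = 8.1e-05; SSM minus MSM 0.46, unadjusted p = 0.00015). Timm8b was likewise higher in SSM than in SSS by 0.26 and than in MSM by 0.18. Nr1d1 overlapped with both groups, and SSM minus SSS was 0.12 (unadjusted p = 0.13).

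The nuclear RNAs and splicing genes gave another pattern. Malat1 measured 10.70, 10.46 and 10.53 in SSM and 9.83, 10.96 and 11.21 in SSS, a difference of -0.10 (unadjusted p = 0.68), while MSM arrays stood at 11.29, 11.26 and 11.38 (SSM minus MSM -0.74, unadjusted p = 0.0082). Meg3 gave SSM minus SSS of -0.17 and SSM minus MSM of -0.67. SSS replicate 1 was the lowest of all 15 arrays for Malat1 and for Meg3, and the other SSS arrays lay above the SSM arrays, so the SSS group spanned the gap. For the 4 nuclear RNAs the median difference from CC was -0.63 in SSM, -0.44 in SSS, 0.13 in MSM and 0.08 in MSS. For the 24 splicing genes it was -0.09 in SSM, -0.12 in SSS, 0.03 in MSM and 0.04 in MSS. These differences share the CC arrays. Over the 48 genes of the Dlk1 to Dio3 region, the median of SSM minus SSS was 0.01 and that of SSM minus MSM was -0.24. Mir380, at 4.39, 4.65 and 4.65 in SSM and 5.41, 5.44 and 5.58 in MSM, had the smallest adjusted p, 0.0764, of SSM against MSM (difference -0.92).

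The mitochondrial lists did not share that pattern with SSS. The median difference of the oxidative phosphorylation subunits from CC was 0.11 in SSM, -0.02 in SSS, 0.02 in MSM and -0.05 in MSS, and the median of SSM minus SSS was 0.12, against 0.06 over all genes. Ndufb5 stood at 10.04, 9.89 and 9.97 in SSM, with every SSM array above the 12 other arrays plotted. The mitochondrial ribosome and import list had a median of 0.12 in SSM, 0.00 in SSS, 0.00 in MSM and -0.06 in MSS. The scale of SSM replicate 3, 0.16 above the other arrays, enters each of these differences.

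**Figure D4:**
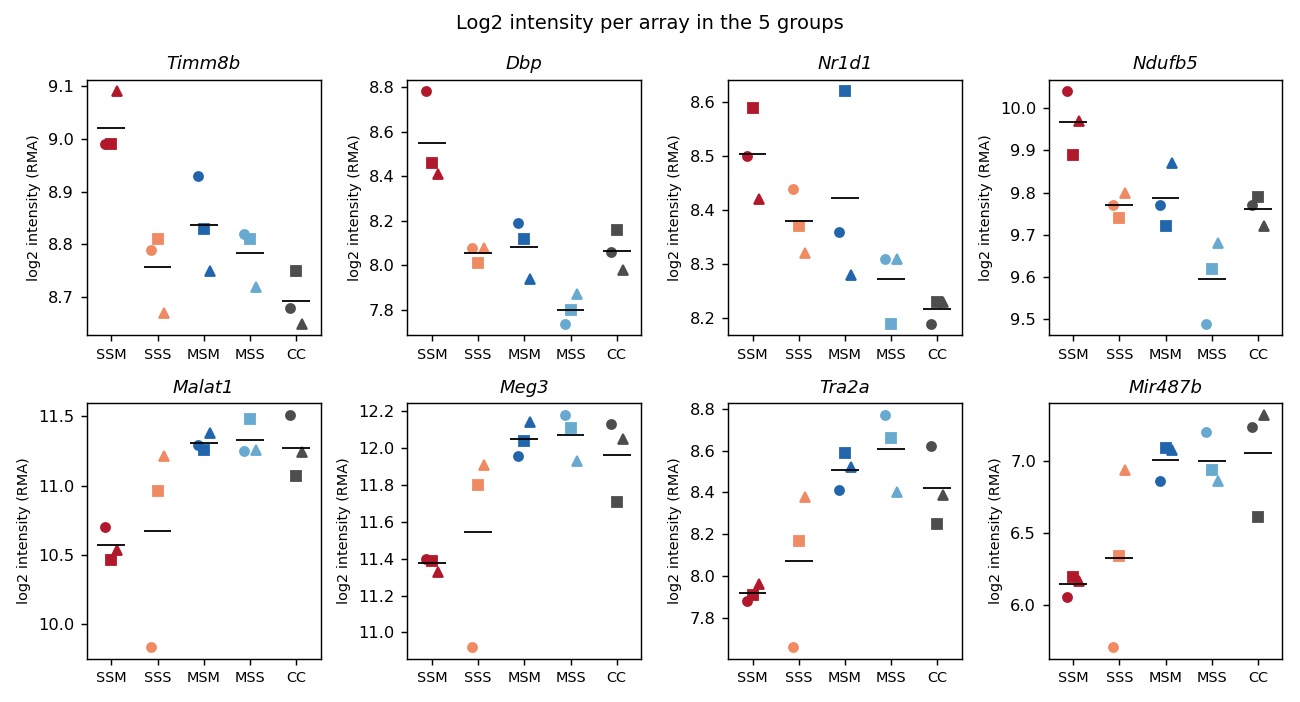
Log2 intensity (vertical axis) of 8 genes in each array of the 5 groups (horizontal axis), with circles, squares and triangles for replicates 1, 2 and 3 and a line at each group's mean. For Timm8b, Dbp and Ndufb5 the SSM points lie above all others, and for Malat1, Meg3, Tra2a and Mir487b the SSM points lie low together with SSS replicate 1.

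Single arrays weighed on the counts of genes. Without CC replicate 3, limma called 1 gene, Galntl6, a member of the family that starts O-linked sugar chains, at a difference of 0.87 (adjusted p = 0.00043). It measured 8.49, 8.41 and 8.65 in SSM and 7.68, 7.60 and 8.44 in CC, so CC replicate 3 was level with SSM and apart from the other CC arrays, and with all arrays the difference was 0.61 ± 0.15. The 9 arrays of SSS, MSM and MSS lay between 8.35 and 8.49, so Galntl6 was low in 2 CC arrays and in no other. It was named after its values were seen. Leaving out SSM replicate 2 gave 2775 genes higher and leaving out SSM replicate 3 gave 626, against 1581 with all arrays.

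**Figure D5:**
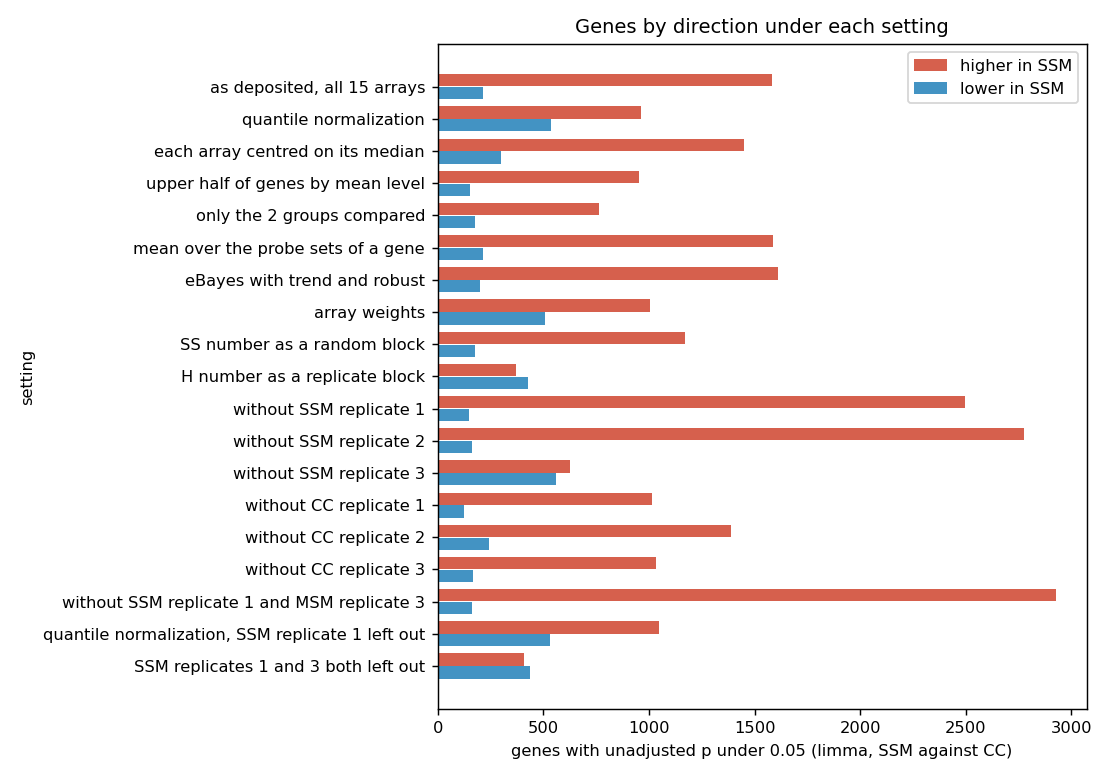
Number of genes with an unadjusted p under 0.05 (horizontal axis) with a higher (red) or lower (blue) mean in SSM than in CC, under each setting (vertical axis). With all arrays 1581 genes were higher and 215 lower, without SSM replicate 3 the counts were 626 and 560, and with the H number as a replicate block 370 and 430.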

How the data were processed

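The authors deposited 1 table of log2 intensities for the 15 arrays (Affymetrix Mouse Gene 1.0 ST, 1 colour, total RNA), made with RMA per the submitters' processing notes. RMA corrects background, normalizes and summarises probes. The software behind it was not given in the sources used here, and array medians still differ. The table was used as deposited, with 0 columns left unused. Of 35557 probe sets, 21789 carry 1 gene symbol in the platform annotation, 1621 several and 12147 none, which left 19938 genes, 19919 of them in the RefSeq table of GRCm38.p6. No dim genes were removed, and the number of arrays limits the precision. Cpn1, Epo, Tlr4, Rtl1 and Mir380, among others, lay below the array median in every SSM and CC array.

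The tests used limma 3.58.1 under R 4.3.3: lmFit with a mean for every group on all 15 arrays and eBayes, with 10 residual and 4.61 prior degrees of freedom. They are two-sided at a threshold of 0.05 after Benjamini-Hochberg adjustment across all genes. The fit was tested on simulated data. Groups came from the labelled treatment. Members and the 36 gene lists (654 entries, 595 measured) were chosen with earlier results of these data known, so no list was tested. As no gene passed, the 10 genes with a higher and the 10 with a lower mean of smallest p were named, and of each list up to 4 members (markers up to 3) by smallest p. Predicted genes, RIKEN clones, receptors of smell and microRNAs were passed over, apart from those said to be chosen after their values were seen. Alternatives were quantile normalization, median centring, genes at or above the median level, only the arrays compared, the mean of a gene's probe sets, eBayes with trend, array weights, the SS number as a random block, the H number as a replicate block, and leaving arrays out. The SS and H numbers come from the sample titles. SSM and CC arrays share only some H numbers, and no label says that a shared number pairs pups.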

Additional observations from a re-analysis of the deposited data

How the results depend on the processing

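No gene was called lower in SSM than in CC, and none against SSS or MSM, under any of the 18 alternatives (limma, adjusted p under 0.05), and the count of genes called higher was 0 in all but the fit without CC replicate 3, which called 1 (Galntl6, 0.87 against 0.61 with all arrays). Over the fits without 1 array that count ran from 0 to 1. At an unadjusted p under 0.05, a count chosen after the data were seen, 1581 genes were higher and 215 lower with all arrays. The number higher was 961 with quantile normalization, 954 among genes at or above the median level, 766 in the fit of the 2 groups alone, 1007 with array weights, 370 with the H number as a replicate block, and between 626 and 2775 without 1 array, or 2925 without SSM replicate 1 and MSM replicate 3. The number lower was 536 with quantile normalization, 507 with array weights, 430 with the replicate block, and between 126 and 560 without 1 array. The replicate block leaves 3 residual degrees of freedom. A correlation of 0.065 within SS numbers was estimated for the random block.

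Some alternatives were added after the data were seen: quantile normalization with SSM replicate 1 left out gave 1048 higher and 530 lower, and leaving out SSM replicates 1 and 3 gave 411 and 439, with a lone SSM array assumed to vary like the other groups. Of 86 genes tested for direction, 78 kept the sign of their difference in every setting and 8 did not. Without SSM replicate 1, with or without MSM replicate 3, the differences were -0.0337 for Oprk1, -0.0263 for Pdyn, -0.4301 for Drd1 and -0.806 for Penk. Over the fits without 1 array they reached 0.8888, 0.5241, 1.1646 and 1.4323. With quantile normalization and SSM replicate 1 left out they were -0.1062, -0.0781, -0.4817 and -0.8621, and -0.0509 for Mog. With SSM replicates 1 and 3 left out they were -0.172, -0.0135, -0.5554 and -0.8723, with -0.0835 for Mog, -0.004 for Oprm1 and -0.0039 for Dlk1. With the replicate block Dlk1 gave -0.053 and Dio3 -0.0589, and without 1 array Dlk1 ran from -0.029 to 0.1892 and Dio3 from -0.0585 to 0.1958. Where no array is named, the cause of a change of direction was not tested. The median difference changed sign in some setting for 22 of 36 lists. It kept its sign in the other 14. Those below 0 were the nuclear RNAs (-0.76 to -0.55) and the splicing genes (-0.18 to -0.07). Those above 0 included the oxidative phosphorylation subunits (0.04 to 0.14), the mitochondrial ribosome and import genes (0.06 to 0.15), the proteasome (0.05 to 0.12) and the clock (0.01 to 0.14). The glucocorticoid, hypoxia, heat shock, unfolded protein, fatty acid oxidation, interneuron, microglia and blood lists also stayed above 0. Over all genes the median was above 0 too, at 0.06 as deposited and 0.02, 0.01 and 0.09 with quantile normalization, without SSM replicate 3 and without SSM replicate 1. A sign kept above 0 therefore does not set a list apart. The 3 arrays per group, with a median standard error of 0.08, limit what the comparison can detect.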
